A study of Mus musculus with 4 samples.

Results

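The organic ion and drug transporters described here are the 49 genes, of 16706 in the deposited matrix, whose symbol starts with Slc22a, Slco, Slc47a, Abcb, Abcc or Abcg. They comprise 20 Slc22a, 9 Slco, 1 Slc47a, 8 Abcb, 8 Abcc and 3 Abcg genes. The choice used symbols only and no measured value, and each of the 49 had at least 1 molecule counted in the kidney cells.

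All mice were 9-week-old C57Bl/6 males of the genotype Pax2.rtTA;TetO.Cre;R26.Confetti, a reporter line in which the Pax2 promoter drives the inducer of a Cre that switches on fluorescent colours; the colours were not used here. Every mouse received anti-GBM serum, an antiserum against the glomerular basement membrane that produces crescentic glomerulonephritis, so no group is free of nephritis. From day 1 the groups were given 15 mg/kg panobinostat, 10 mg/kg givinostat, 60 mg/kg ruxolitinib or vehicle, which was distilled water, and kidneys were taken on day 7. Panobinostat and givinostat inhibit histone deacetylases, ruxolitinib inhibits Janus kinases, and the study asked how these drugs act in this model. The labels state 2 animals per group, but the deposited cells form 1 library per group with no mark of the animal. There is therefore no replicate within a group, no test between groups, and every interval below covers counting error only.

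The proximal tubule takes up organic anions and cations from the blood at its basolateral side and passes them to the urine through apical carriers and ATP-driven pumps. Members of the Slc22a family carry anions such as urate and p-aminohippurate or cations such as creatinine and metformin, Slco genes encode organic anion transporting polypeptides, Slc47a1 encodes the proton-coupled exporter MATE1, and the Abcb, Abcc and Abcg genes encode ATP-binding cassette proteins, among them P-glycoprotein, the multidrug resistance proteins and BCRP. In rodents several of these genes differ between the early S1 and the late S3 segment of the tubule, and some differ between the sexes.

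Unique molecular identifiers (UMIs) were summed over cells of a class in a library and scaled to a common total (CPM), so a value is a share of the RNA counted in that class. Of 16003 cells, 15777 were kept, with 4396, 3472, 3979 and 3930 cells and 36861583, 45075309, 42882138 and 40627826 UMIs in the panobinostat, givinostat, ruxolitinib and vehicle libraries. The clusters, found without the 49 genes, gave 7269 proximal tubule-like cells (2521, 1199, 1753 and 1796 in the same order), in which 13 of 13 proximal tubule markers exceeded 10 CPM in the S3-like and mixed cells and 12 of 13 in the S1-like cells. These cells were divided by S3 and S1 marker genes into 3 S3-like, 2 mixed and 3 S1-like clusters; the S3-like share was 46.0%, 51.2%, 38.9% and 51.5% of proximal tubule-like cells in the panobinostat, givinostat, ruxolitinib and vehicle libraries. Of 15758 distinct barcodes, 19 occurred in more than 1 library. Proximal tubule RNA was counted in the other classes too: 10 proximal tubule genes stood in T-like cells at a median 9.33%, 4.62%, 6.21% and 4.82% of their proximal tubule-like level in the same 4 libraries.

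The 250 bases before the RefSeq start (GRCm38.p6) are shown for 4 members on which the segment results turn: Slc22a6 and Slc22a8, which are neighbours but have opposite segment patterns, and Slc22a13 and Slc22a19, which were enriched in S3-like cells and had few UMIs in S1-like cells. Slc22a6 lies at chr19:8617746-8617995 (+ strand), Slc22a8 at chr19:8592932-8593181 (+ strand), Slc22a13 at chr9:119209106-119209355 (- strand) and Slc22a19 at chr19:7711311-7711560 (- strand); capitals mark the letters GTTAAT or the STAT element TTCNNNGAA, each searched on both strands.
Slc22a6: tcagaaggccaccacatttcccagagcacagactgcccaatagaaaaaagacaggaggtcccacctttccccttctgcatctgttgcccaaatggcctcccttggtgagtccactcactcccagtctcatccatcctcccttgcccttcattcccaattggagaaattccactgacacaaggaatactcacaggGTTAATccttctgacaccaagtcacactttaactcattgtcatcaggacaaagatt
Slc22a8: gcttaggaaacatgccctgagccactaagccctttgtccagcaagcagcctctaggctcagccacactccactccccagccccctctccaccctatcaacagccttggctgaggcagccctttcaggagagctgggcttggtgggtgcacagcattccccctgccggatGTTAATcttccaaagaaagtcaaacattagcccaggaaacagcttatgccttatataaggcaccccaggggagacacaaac
Slc22a13: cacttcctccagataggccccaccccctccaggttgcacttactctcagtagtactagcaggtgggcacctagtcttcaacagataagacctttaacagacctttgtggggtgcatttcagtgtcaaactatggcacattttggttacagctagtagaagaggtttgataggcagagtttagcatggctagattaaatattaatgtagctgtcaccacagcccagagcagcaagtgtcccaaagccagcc
Slc22a19: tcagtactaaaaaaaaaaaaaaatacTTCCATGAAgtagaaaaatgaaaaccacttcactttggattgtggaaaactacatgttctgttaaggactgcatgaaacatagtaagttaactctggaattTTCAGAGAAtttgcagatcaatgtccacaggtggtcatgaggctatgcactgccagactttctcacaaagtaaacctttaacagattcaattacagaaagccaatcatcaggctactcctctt

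Slc22a6 and Slc22a8 each hold 1 GTTAAT, Slc22a19 holds the STAT letters at 2 places, and Slc22a13 holds neither. GTTAAT occurred in 6.52% of 27025 windows and in 3 of the 37 members that have one (Slc22a29, Slc22a8 and Slc22a6), TTCNNNGAA in 7.18% of windows and in 4 members (Slc22a15, Abcc5, Slc22a19 and Slc22a26), and the HNF4 core CAAAGTCCA in 0.381% of windows and in 0 members. These are matches of letters and say nothing about binding. In GENCODE, Slc22a8 and Slc22a6 follow each other on the + strand with 6203 bases between them and are part of a chromosome 19 group of 7 members, with Slc22a19, Slc22a26, Slc22a28, Slc22a29 and Slc22a30; the RefSeq start of Slc22a8 used here lies inside the longer GENCODE gene. The libraries count transcript 3′ ends, so shared end sequence limits some values. Of 50-base words in the last 400 bases of transcripts, 80.9% of those of Slc22a5 occur in Slc22a21, 82.0% of those of Abcb6 in Gm29253, 81.8% of those of Slc22a21 in Slc22a5, 45.6% of those of Slc22a28 in Slc22a30, 20.2% of those of Slc22a29 in Slc22a27 or Slc22a30, 13.1% of those of Abcb1b in Abcb1a or Abcb4 and 12.5% of those of Slc22a13 in Slc22a13b-ps, and the counts of these genes are uncertain to that extent.

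Proximal tubule-like cells were the main site of the members. Of the members that reached 10 CPM in at least 1 class of 50 or more cells, the highest class was proximal tubule-like for 22 of 40 in the panobinostat library, where this held for 15.8% of all genes, 21 of 42 in the givinostat library (13.2% of all genes), 21 of 41 in the ruxolitinib library (13.4%) and 21 of 38 in the vehicle library (14.6%). Proximal tubule-like cells held 89.1%, 83.3%, 86.3% and 85.7% of all member UMIs in the panobinostat, givinostat, ruxolitinib and vehicle libraries. They also held 62.7%, 41.3%, 50.6% and 51.7% of the UMIs of all genes in the same order, so the size of the class sets part of each share. Summed over the 49 genes, the level there was 5130 CPM, 5534 CPM, 4732 CPM and 4897 CPM in the same order. Of the 49 members, 17 reached 50 CPM in proximal tubule-like cells of a library, and 21 stayed under 10 CPM there in every library. The 29 members that are described mainly by counts had between 0.173 and 39.8 CPM there in the library where each was highest. Those of them that are named below (Slc22a4, Slc22a13, Slc22a19, Slc22a29, Slco4c1, Abcc4 and Abcc5, for example) were named after their values were seen.

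**Figure D1:**
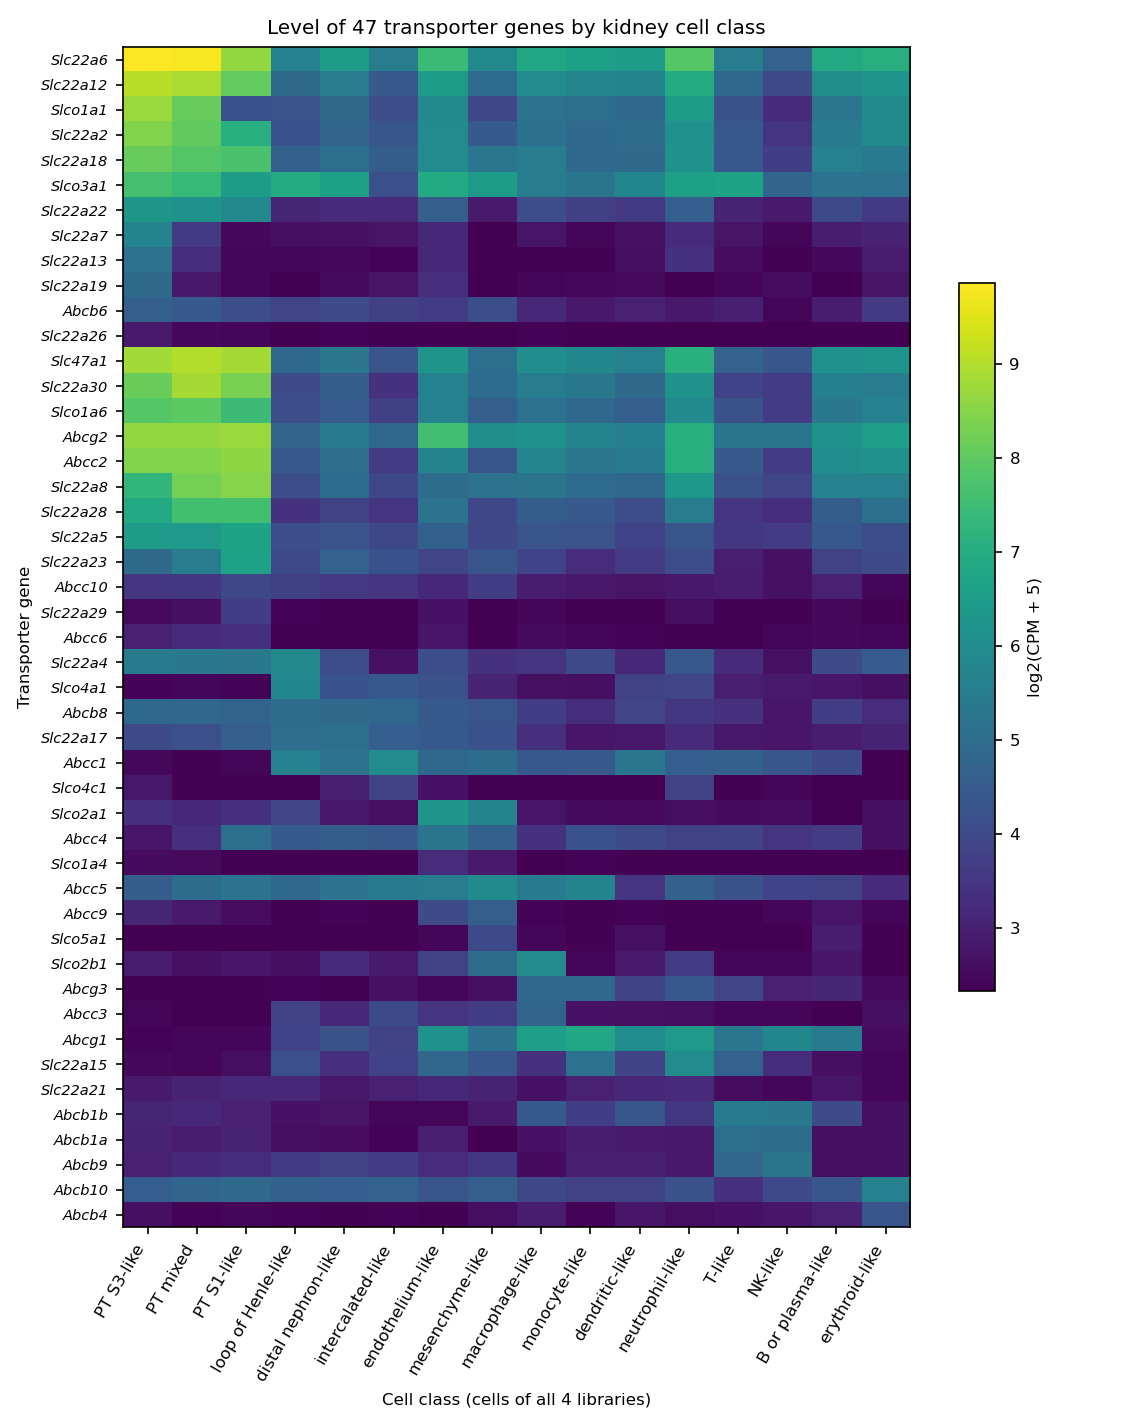
Level of 47 of the 49 transporter genes (rows) in 16 cell classes (columns), as log2(CPM + 5) of UMIs summed over the 4 libraries. The proximal tubule-like columns carry most of the high values, and Abcg1 and Slco2b1 stand out in monocyte-like and macrophage-like cells.

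Among the organic anion carriers, Slc22a6 (OAT1), the basolateral p-aminohippurate carrier, was at 835 CPM with panobinostat, 794 CPM with givinostat, 656 CPM with ruxolitinib and 762 CPM with vehicle in proximal tubule-like cells. Slc22a12 (URAT1), which reabsorbs urate at the apical side, was at 511, 481, 342 and 440.5 CPM in the panobinostat, givinostat, ruxolitinib and vehicle libraries. Slc22a8 (OAT3), the other main basolateral anion carrier, was at 272, 213, 264 and 217 CPM in that order. The ruxolitinib library was thus the lowest of the 4 for Slc22a6 and Slc22a12 but not for Slc22a8. Slc22a30 was at 299.8, 400.2, 337 and 289 CPM and its neighbour Slc22a28 at 131, 195, 171 and 114 CPM in the panobinostat, givinostat, ruxolitinib and vehicle libraries; both were highest with givinostat and lowest with vehicle. Slc22a22, a prostaglandin carrier in mouse kidney, ranged over the 4 libraries between 62.8 and 82.1 CPM.

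Of the cation and zwitterion carriers, Slc22a2 (OCT2) was at 272, 276, 228 and 274 CPM in the panobinostat, givinostat, ruxolitinib and vehicle libraries. Slc47a1 (MATE1), which passes cations to the urine, was at 422, 559.7, 435 and 435 CPM in the same order, highest with givinostat. The carnitine carrier Slc22a5 (OCTN2) was at 68.5 CPM with panobinostat, 105 CPM with givinostat, 99 CPM with ruxolitinib and 79.8 CPM with vehicle, with the doubt about Slc22a21 stated above. Slc22a18, an imprinted gene, was at 276, 235, 217 and 242 CPM and Slc22a23, which has no established substrate, at 46.9, 47.6, 55.9 and 43.1 CPM in the panobinostat, givinostat, ruxolitinib and vehicle libraries.

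The organic anion transporting polypeptides of the tubule were Slco1a1 at 294, 343, 174 and 281 CPM, Slco1a6 at 198, 248, 222 and 202 CPM and Slco3a1 at 143, 179, 141 and 163 CPM in the panobinostat, givinostat, ruxolitinib and vehicle libraries. Slco1a1 with ruxolitinib was the only one of these 12 values that lay outside the range of the other 3 libraries by more than 1.5-fold. Of the pumps, Abcg2 (BCRP), an apical exporter of urate and drugs, was at 389.9, 423, 390.1 and 403 CPM and Abcc2 (MRP2), which exports conjugates into the urine, at 358, 375, 359 and 322 CPM in the same order. Abcc5, at 24.0 CPM with vehicle, was among the lower ABC members that were above 10 CPM.

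Along the tubule, the members divided into S3-enriched, S1-enriched and even genes, and the division was alike in the 4 libraries. A gene was counted as past 1.5-fold when the ratio of the 2 CPM values, each with 5 CPM added, exceeded 1.5 or its inverse, among genes with at least 10 CPM in either. S3-like over S1-like, this counted 8 members higher and 4 lower of 29 in the panobinostat library (4.49% and 20.5% of all genes), 9 higher and 7 lower of 30 in the givinostat library (4.92% and 26.8%), 9 higher and 7 lower of 29 in the ruxolitinib library (4.9% and 19.7%), and 8 higher and 4 lower of 29 in the vehicle library (5.15% and 17.7%). The higher counts stood above the share of all genes, whereas the lower counts were near it. In all 4 libraries the same 8 members were higher in S3-like cells (Slco1a1, Slc22a7, Slc22a13, Slc22a19, Slc22a6, Slc22a12, Slc22a2 and Slco3a1) and the same 3 lower (Abcc4, Slc22a23 and Slc22a8), out of 28 measured in every library; 0 were past 1.5-fold in opposite directions in a pair of libraries. The share of all genes called alike in all 4 libraries was not counted, so these shared counts have no background. The segments were named on clusters that pooled the cells of all 4 libraries. All 4 libraries came from nephritic kidneys.

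**Figure D2:**
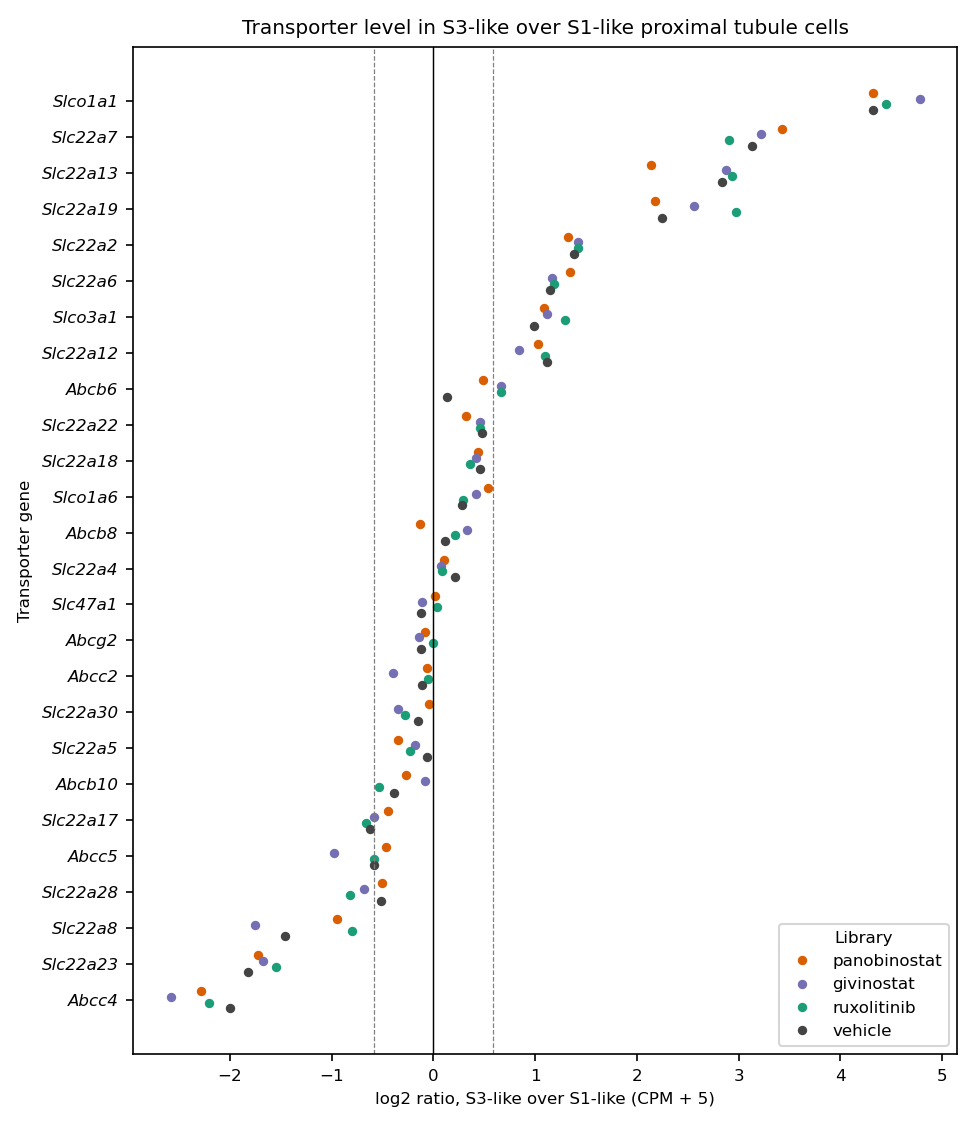
S3-like over S1-like level, as a log2 ratio with 5 CPM added to both, for 26 of the 28 members measured in all 4 libraries; points are the libraries and the dashed lines mark 1.5-fold. Slco1a1 lies farthest to the right and Abcc4 and Slc22a23 farthest to the left; of Slc22a8 the givinostat and vehicle points lie left of those of panobinostat and ruxolitinib.

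Slco1a1, an apical carrier in mouse tubule whose kidney expression is known to depend on androgen, had the widest contrast among the abundant members. It was at 461, 505, 297 and 397 CPM in S3-like cells of the panobinostat, givinostat, ruxolitinib and vehicle libraries, against 18.2, 13.6, 8.83 and 15.1 CPM in their S1-like cells. That is 25.3-fold [21.2 to 30.4, 95% counting interval], 37.2-fold [28.9 to 48.7], 33.6-fold [26.4 to 43.5] and 26.3-fold [21.1 to 33.2] higher. Slc22a7 (OAT2) was at 55.1, 41.6, 35.3 and 51.7 CPM in S3-like cells, with 4, 0, 3 and 8 UMIs in all S1-like cells of the same libraries. In the givinostat library, where the S1-like count was 0, S3-like cells were at least 62.4-fold higher than the limit of 3 counts. The apical carriers Slc22a13, which exchanges nicotinate and urate in humans, and Slc22a19, a carrier of steroid sulfates in rodents, were of the same kind: Slc22a13 reached 19, 35.1, 36.3 and 30.9 CPM in S3-like cells against 3, 2, 3 and 0 UMIs in S1-like cells, and Slc22a19 reached 20.3, 25.9, 37.4 and 21.4 CPM against 4, 1, 3 and 3 UMIs.

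Slc22a6 and Slc22a8 carry overlapping sets of anions at the same membrane and stand next to each other on chromosome 19. Taken over all S3-like and all S1-like cells, they had opposite contrasts. Slc22a6 was at 1049.8, 924, 829 and 887 CPM in S3-like cells of the panobinostat, givinostat, ruxolitinib and vehicle libraries, against 411, 409.6, 362 and 397 CPM in S1-like cells, a ratio of 2.56, 2.26, 2.29 and 2.23. Slc22a8 was at 192, 109, 183 and 125 CPM in S3-like cells, against 376, 382, 324 and 355 CPM in S1-like cells, a ratio of 0.512 [0.483 to 0.542], 0.287 [0.266 to 0.310], 0.566 [0.532 to 0.602] and 0.354 [0.330 to 0.379]. For both genes, the S3-like and S1-like values of the 4 libraries did not overlap. The share of all genes for which this held was not counted. The S1-like values of Slc22a8 lay within 324 to 382 CPM, while its S3-like values split into a higher pair (panobinostat and ruxolitinib) and a lower pair (givinostat and vehicle).

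The cation and urate carriers Slc22a2 and Slc22a12 also leaned to S3. Slc22a2 was at 352, 351, 321 and 341 CPM in S3-like cells against 137, 127, 116 and 128 CPM in S1-like cells of the panobinostat, givinostat, ruxolitinib and vehicle libraries, and Slc22a12 was 2.06-, 1.81-, 2.16- and 2.20-fold higher in S3-like cells in the same order. On the S1 side, Abcc4 (MRP4), an apical exporter of cyclic nucleotides and urate, was at 1.33, 1.39, 2.20 and 2.52 CPM in S3-like cells, against 25.8, 33.4, 28.2 and 25.2 CPM in S1-like cells of the same libraries. Slc22a23 was at 24.4, 26.2, 29.8 and 22.7 CPM in S3-like cells against 91.9, 94.7, 96.5 and 92.8 CPM in S1-like cells. The exporters Slc47a1, Abcg2 and Abcc2 were within 1.5-fold between the segments in every library.

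**Figure D3:**
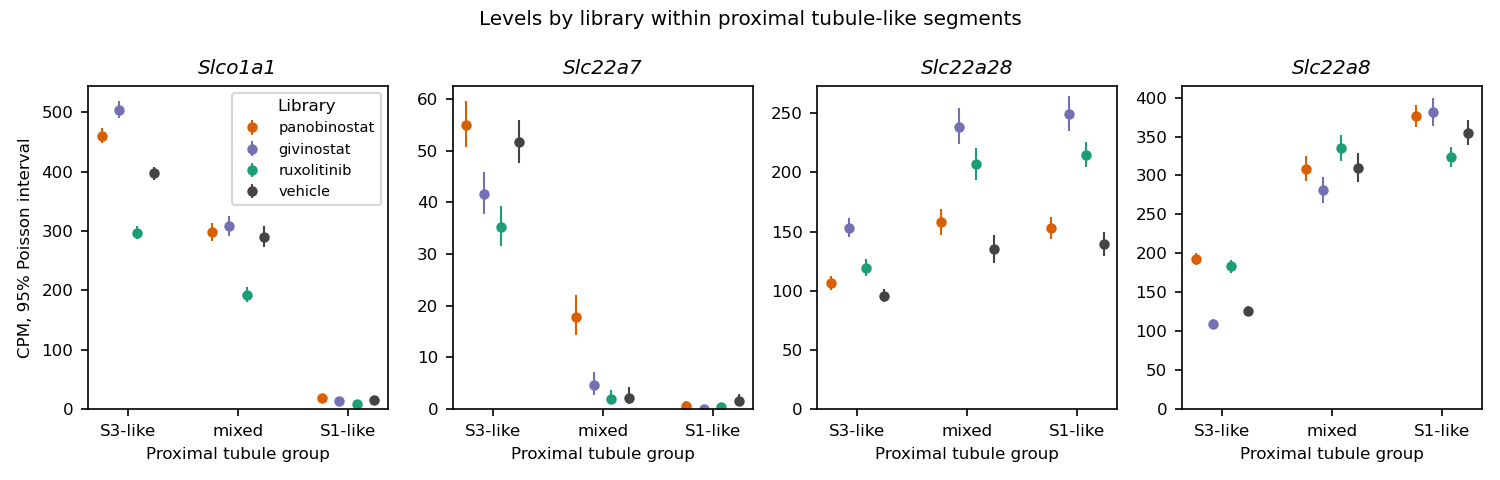
CPM of Slco1a1, Slc22a7, Slc22a28 and Slc22a8 in S3-like, mixed and S1-like proximal tubule cells of each library, with 95% counting intervals. Slco1a1 and Slc22a7 decline towards S1-like cells, Slc22a8 increases, and Slc22a28 is higher in the givinostat and ruxolitinib libraries in each of the 3 groups of cells.

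A small S3-like cluster carried much of the Slc22a7, Slc22a13 and Slc22a19 signal. It was led by Serpina1f, Cyp7b1 and Akr1c18 and held 65, 41, 76 and 60 cells of the panobinostat, givinostat, ruxolitinib and vehicle libraries. Slc22a7 was there at 574, 379.5, 245 and 544 CPM, Slc22a13 at 229, 351, 240.4 and 335 CPM and Slc22a19 at 262, 285, 300.0 and 281 CPM in the same order. In the large S3-like cluster led by Kap and Slco1a1, the same 3 genes were at 35.3, 24.0, 22.2 and 29.7 CPM, 7.5, 9.48, 16.7 and 14.9 CPM, and 7.11, 5.74, 13.2 and 7.30 CPM. The common anion carriers had the reverse pattern: Slc22a6 was at 125, 79.2, 119 and 51.0 CPM in the small cluster, and Slc22a8 at 10.9, 0, 15.7 and 8.51 CPM, each below its level in the large S3-like cluster in every library. Slc22a6 was there also below its S1-like level in every library, so its lean to S3-like cells did not hold in this cluster. Slco4c1 was counted at 1.56, 10.5, 57.5 and 31.2 CPM in the small cluster while S3-like cells as a whole had 0.0884, 0.697, 5.87 and 2.01 CPM.

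The clusters in which Abcc2 and Slc47a1 were low were those poor in Malat1, an RNA that stays in the nucleus. Proximal tubule-like cells fell into 2 sets by Malat1, with 3462 of 7269 cells below 5000 CPM of their own UMIs and 76 cells between 2500 and 10000 CPM. Malat1-poor cells made up 53.7%, 46.0%, 42.7% and 45.0% of proximal tubule-like cells in the panobinostat, givinostat, ruxolitinib and vehicle libraries, and 59.0% of S3-like, 51.0% of mixed and 28.2% of S1-like cells over all libraries. They had a median 7081.5 UMIs and 23.5% mitochondrial UMIs, against 12815 UMIs and 14.0% in Malat1-rich cells. This division was made after the values were seen. Over all libraries, 11 of 29 members were past 1.5-fold lower in Malat1-poor cells, where 40.4% of all genes were, and 3 were higher (8.44% of all genes), namely Slc22a7, Slc22a19 and Slc22a13. Much of the signal of these 3 lay in the small S3-like cluster, where 81.8% of cells were Malat1-poor. The median member ratio was -0.35 and that of all genes -0.36 on the log2 scale, but the segments differed. In S3-like cells 8 of 27 members were lower (39.0% of all genes), with a median of -0.10 for the members and -0.34 for all genes. In mixed cells 12 of 24 were lower (37.3%), with medians of -0.62 and -0.29, and in S1-like cells 15 of 26 (39.4%), with medians of -0.73 and -0.35.

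Single members differed widely from the pooled median. Abcc2 was at 154 CPM in Malat1-poor and 458 CPM in Malat1-rich cells, Slc22a30 at 107 and 446 CPM, Slc47a1 at 263 and 562 CPM, and Slc22a5 at 40.8 and 112 CPM. By contrast, Slc22a6 was at 812 and 735 CPM and Abcg2 at 386 and 408 CPM in the same order. The segment and library can be held fixed, which gives 12 pairs of Malat1-poor and Malat1-rich cells. In these, 24 members were measured throughout: 6 were past 1.5-fold lower in all 12 pairs (Abcc2, Abcc5, Slc22a30, Slc22a4, Slc22a5 and Slc47a1), 7 in none (among them Abcb6, Abcb8, Abcg2, Slc22a12, Slc22a18 and Slc22a8) and 0 were higher in all. Of all genes, between 37.0% and 42.5% were lower in a given pair. The share of all genes lower in all 12 pairs, or in none, was not counted, so these shared counts have no background. The ratio of Abcc2 ran between 0.211 and 0.45, that of Slc47a1 between 0.267 and 0.633 and that of Slc22a30 between 0.0880 and 0.412, while Abcg2 ran between 0.743 and 1.13. Since libraries differ in their share of Malat1-poor cells, ratios called over all proximal tubule-like cells are given below also in Malat1-rich cells alone. Ratios called only within a segment were not recomputed that way.

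Between drug and vehicle, few transporters were past 1.5-fold in proximal tubule-like cells. With panobinostat, 0 of 27 members were higher (0.297% of all genes) and 0 were lower (0.943%). With givinostat, 1 of 27 was higher, Slc22a28 (0.546% of all genes), and 0 lower (0.686%). With ruxolitinib, 0 of 28 were higher (1.04%) and 2 were lower, Slco1a1 and Slc22a7 (0.503%). The median log2 ratio of the members was -0.01 with panobinostat, 0.13 with givinostat and -0.00 with ruxolitinib, beside 0.01, 0.06 and 0.09 for all genes. The 3 comparisons share the vehicle library, so an unusual vehicle value would appear in each of them. Panobinostat and givinostat, both hydroxamates, were given at 15 and 10 mg/kg, and their values stand side by side here without a comparison between them.

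Within each segment the count was as small, and 0 members were past 1.5-fold lower in any segment with any drug. In S3-like cells 1 of 27 was higher with panobinostat (Slc22a8), 1 of 27 with givinostat (Slc22a28) and 1 of 27 with ruxolitinib (Slc22a19), beside 0.376%, 0.559% and 0.938% of all genes; lower were 1.72%, 0.878% and 0.515% of all genes. In mixed cells 1 of 25 was higher with panobinostat (Slc22a7), 2 of 24 with givinostat (Slc22a28 and the ergothioneine carrier Slc22a4) and 1 of 24 with ruxolitinib (Slc22a28), beside 1.52%, 5.33% and 3.43% of all genes; lower were 0.822%, 0.86% and 0.831%. In S1-like cells 0 of 26 were higher with panobinostat, 2 of 27 with givinostat and 2 of 27 with ruxolitinib (both times Slc22a28 and Slc22a29), beside 0.434%, 2% and 1.06% of all genes; lower were 0.663%, 0.951% and 0.677%. Slc22a4 in mixed cells was at 42.5 CPM with givinostat and 26.3 CPM with vehicle (1.62 [1.26 to 2.10]). Malat1-poor cells, in which Slc22a4 was lower in every pair, were 38.6% of mixed cells with givinostat and 51.5% with vehicle. Their part in the Slc22a4 ratio was not tested. Slc22a29 in S1-like cells was at 12.5 CPM with givinostat and 10.0 CPM with ruxolitinib against 4.85 CPM with vehicle.

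**Figure D4:**
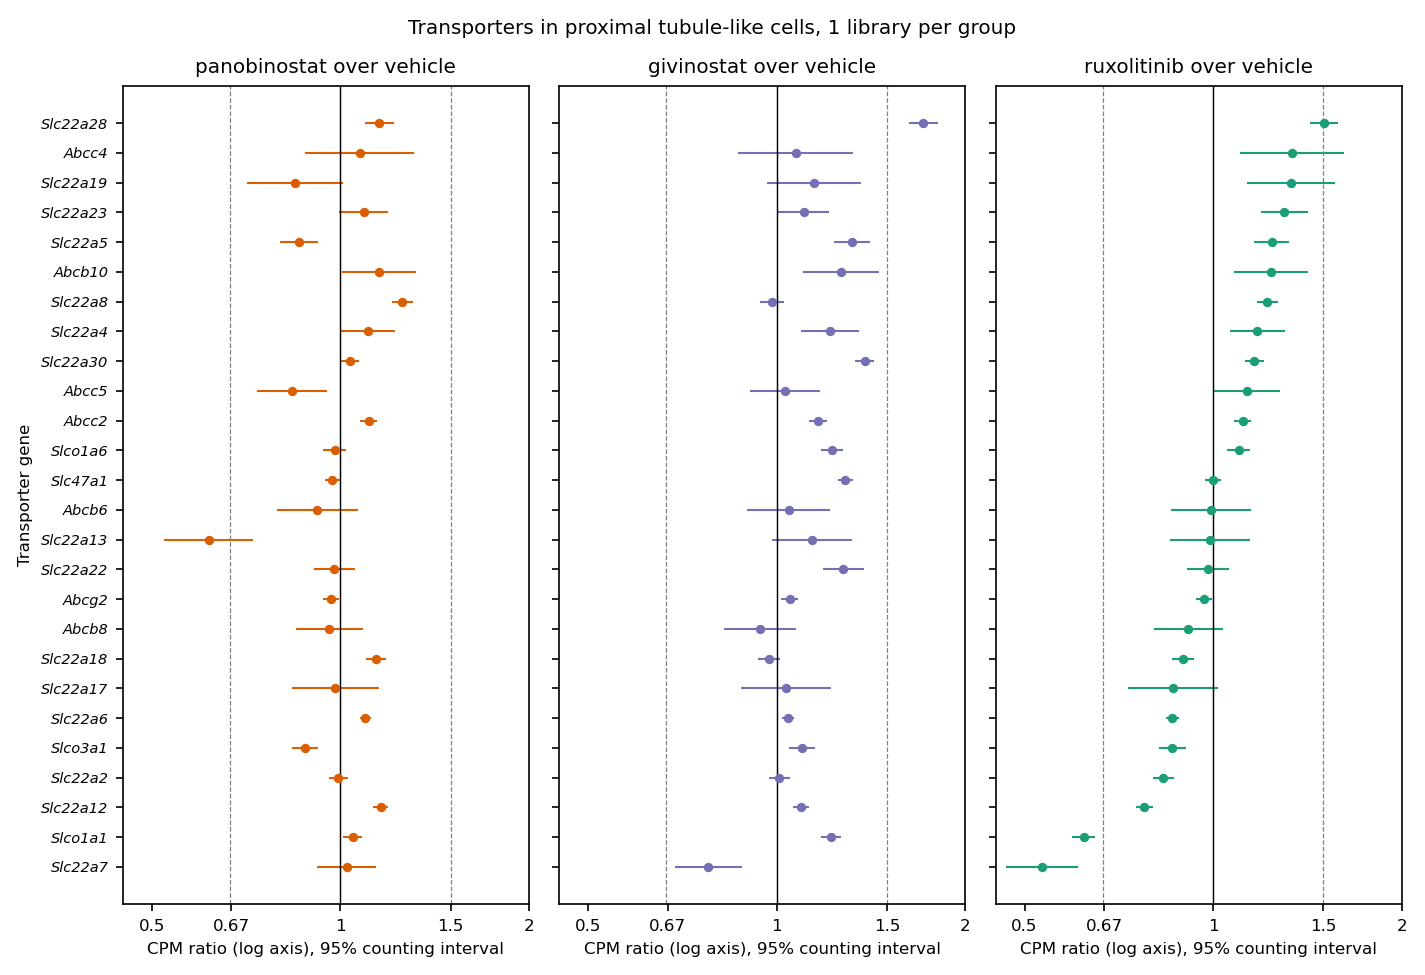
Ratio of each drug library to the vehicle library for 26 members in proximal tubule-like cells (log axis), with 95% counting intervals and dashed lines at 1.5-fold; 1 panel per drug. Most members lie near 1, with Slc22a28 to the right in the givinostat and ruxolitinib panels and Slco1a1 and Slc22a7 to the left in the ruxolitinib panel.

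Slco1a1 was at 174 CPM with ruxolitinib and 281 CPM with vehicle, a ratio of 0.621 [0.596 to 0.647], and the panobinostat and givinostat libraries were both above the vehicle. The ruxolitinib library also had the smallest share of S3-like cells, in which Slco1a1 is highest. Within segments it was at 297 CPM with ruxolitinib against 397 CPM with vehicle in S3-like cells (0.748 [0.714 to 0.784]), 193 CPM with ruxolitinib against 291 CPM with vehicle in mixed cells (0.664 [0.606 to 0.726]) and 8.83 CPM with ruxolitinib against 15.1 CPM with vehicle in S1-like cells (0.585 [0.417 to 0.819]). With the ruxolitinib clusters weighted as in the vehicle library, the ratio was 0.747, which is not past 1.5-fold. In Malat1-rich cells alone the pooled ratio was 0.634. S3 genes were not alike in this: in proximal tubule-like cells Slc7a13, an S3 amino acid carrier, was at 163 CPM with ruxolitinib and 276 CPM with vehicle (0.591 [0.566 to 0.616]), and Kap, an androgen-regulated kidney protein, had a ratio of 0.664. In S3-like cells the ratios were 0.737 for Slc7a13 and 0.821 for Kap. Both are among the 9 S3 markers used to name the S3-like clusters, and the ratios of the other markers are not given here. By contrast, Slc22a13 was at 17.4 CPM with ruxolitinib and 17.6 CPM with vehicle in proximal tubule-like cells (0.989 [0.855 to 1.14]), and Slc22a19 at 16.9 CPM with ruxolitinib and 12.7 CPM with vehicle (1.33 [1.13 to 1.57]). Much of the signal of Slc22a13 and Slc22a19 lay in the small S3-like cluster, whose share of proximal tubule-like cells was larger with ruxolitinib than with vehicle.

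Slc22a7 was at 16.1 CPM with ruxolitinib and 30.2 CPM with vehicle (0.534 [0.467 to 0.609]), with 30.9 CPM in the panobinostat and 23.5 CPM in the givinostat library. Within S3-like cells it was at 35.3 CPM with ruxolitinib and 51.7 CPM with vehicle (0.683 [0.596 to 0.781]). In the small late S3-like cluster, with 76 ruxolitinib and 60 vehicle cells, it was at 245 CPM with ruxolitinib and 544 CPM with vehicle (0.449 [0.380 to 0.530]), where 7.35% of all genes were past 1.5-fold lower. There Slc22a13 had a ruxolitinib ratio of 0.718 [0.597 to 0.865] and Slc22a19 of 1.07 [0.889 to 1.29]. In Malat1-rich proximal tubule-like cells alone the ruxolitinib ratio of Slc22a7 was 0.544. In S3-like cells as a whole Slc22a19 was at 37.4 CPM with ruxolitinib against 21.4 CPM with vehicle (1.75 [1.49 to 2.06]). The small cluster, which carried much of its signal, held 956663 of 9541661 S3-like UMIs with ruxolitinib and 705287 of 11927654 with vehicle. The part of this cell mix in the S3-like ratio was not tested. Slco1a1 in the small cluster was at 274 CPM with panobinostat against 95 CPM with vehicle (2.89 [2.17 to 3.89]), where 13.3% of all genes were past 1.5-fold higher. With panobinostat, Slc22a7 was at 17.8 CPM in mixed cells against 2.17 CPM with vehicle, a ratio of 8.24 [4 to 19.7], while in S3-like cells the ratio was 1.06 [0.951 to 1.19]. One mixed cluster was at 28.7 CPM with panobinostat and 2.66 CPM with vehicle. Slc22a13 in mixed cells was at 6.76, 4.89 and 6.36 CPM with panobinostat, givinostat and ruxolitinib against 0.541 CPM with vehicle, all below the 10 CPM minimum. Slc22a13 with panobinostat was at 10.9 CPM in proximal tubule-like cells against 17.6 CPM with vehicle (0.616 [0.523 to 0.725]), which missed the threshold once 5 CPM were added.

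Slc22a28 was higher with givinostat in S3-like, mixed and S1-like cells. Over all of them it was at 195 CPM with givinostat and 114 CPM with vehicle, a ratio of 1.72 [1.63 to 1.81]. With ruxolitinib it was at 171 CPM, a ratio of 1.5 [1.43 to 1.58], which missed the threshold once 5 CPM were added. With givinostat the ratio was 1.60 [1.48 to 1.73] in S3-like, 1.77 [1.58 to 1.97] in mixed and 1.79 [1.63 to 1.96] in S1-like cells; with ruxolitinib it was 1.25, 1.53 and 1.54 in the same order. With panobinostat it was 1.15 [1.09 to 1.22] over all proximal tubule-like cells. In Malat1-rich cells alone the ratio was 1.72 with givinostat and 1.63 with ruxolitinib. The ruxolitinib ratio was uneven: it was 1.01, 0.966, 1.31 and 0.954 in the 4 clusters made up mostly of Malat1-poor cells and 1.41, 1.61, 1.39 and 1.67 in the 4 Malat1-rich clusters. Slc22a30, with which Slc22a28 shares 3′ sequence, had ratios of 1.04, 1.38 and 1.16 with panobinostat, givinostat and ruxolitinib.

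The same split of libraries, givinostat and ruxolitinib on one side and panobinostat and vehicle on the other, occurred in genes unrelated to transport. Tpm3-rs7, a copy of a tropomyosin gene, was at 1.90, 16.9, 23.3 and 1.62 CPM and the pseudogene-like Gm10036 at 15.3, 2.90, 3.87 and 15.1 CPM among the proximal tubule-like cells with panobinostat, givinostat, ruxolitinib and vehicle; both were named after their values were seen. The globin Hbb-bs, a sign of blood RNA, was at 70.9, 191, 178 and 29.1 CPM in the same order. Their part in the Slc22a28 difference was not tested.

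Slc22a8 differed from vehicle in S3-like cells more than in S1-like cells. In S3-like cells it was at 192 CPM with panobinostat against 125 CPM with vehicle, a ratio of 1.53 [1.44 to 1.64], and at 183 CPM with ruxolitinib, 1.46 [1.36 to 1.57]; with givinostat the ratio was 0.873 [0.807 to 0.944]. In S1-like cells the ratios were 1.06 [0.999 to 1.13] with panobinostat, 1.08 [1.01 to 1.15] with givinostat and 0.912 [0.859 to 0.969] with ruxolitinib. The panobinostat and ruxolitinib S3 ratios were found in both large S3-like clusters, 1 Malat1-poor and 1 Malat1-rich: 1.61 and 1.56 with panobinostat, and 1.58 and 1.49 with ruxolitinib. Slc22a6 next to it had S3-like ratios of 1.18, 1.04 and 0.935 with panobinostat, givinostat and ruxolitinib. The difference between segments was not tested.

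The remaining abundant carriers were within 1.5-fold of vehicle. With givinostat, Slc47a1 had a ratio of 1.29 [1.25 to 1.32], Slc22a30 of 1.38 [1.34 to 1.43], Slc22a5 of 1.32 [1.23 to 1.41] and Slc22a22 of 1.28 [1.19 to 1.38]. These intervals exclude 1, but they hold no spread between animals or preparations. With ruxolitinib, the S3-leaning carriers Slc22a12 (0.777 [0.754 to 0.801]), Slc22a2 (0.833 [0.802 to 0.865]) and Slc22a6 (0.861 [0.842 to 0.881]) were lower and the S1-leaning Slc22a23 higher (1.30 [1.19 to 1.42]), whereas the S3-enriched Slc22a13 and Slc22a19 were not lower. Much of the signal of Slc22a13 and Slc22a19 lay in the small S3-like cluster. That cluster was 4.34% of proximal tubule-like cells with ruxolitinib and 3.34% with vehicle, while all S3-like cells were 38.9% and 51.5%. The ratios of Slc22a12, Slc22a2, Slc22a6 and Slc22a23 were recomputed with the vehicle mix of clusters, but those values are not given here. The part of cell mix was not tested beyond that. Abcg2 had ratios of 0.967, 1.05 and 0.968 with panobinostat, givinostat and ruxolitinib.

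Other genes of organic solute transport were likewise near vehicle level. Of 24 further carriers, such as the sodium phosphate cotransporter family member Slc17a3, the bile acid carrier subunit Slc51b and the peptide carrier Slc15a2, 18 were measured in proximal tubule-like cells and 0 were past 1.5-fold with panobinostat, givinostat or ruxolitinib, with median log2 ratios of -0.07, 0.14 and -0.02. S3-like over S1-like, Slc51b, Slc10a2, Slc15a2 and Slc5a8 were higher in all 4 libraries and the lactate carrier Slc5a12, an S1 marker used to name the segment, was lower. Of 24 regulators and scaffolds of such carriers, 19 were measured. With givinostat 0 were past the threshold, and with ruxolitinib 1 was lower, the repressor Bcl6, at 30.3 CPM against 105 CPM with vehicle (0.287 [0.263 to 0.314]). Bcl6 was low with ruxolitinib in S3-like (0.287), mixed (0.297) and S1-like cells (0.334). The nuclear receptors Ppara and Nr3c1 were lower in S3-like than in S1-like cells in all 4 libraries.

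Outside the tubule, other members took over. Abcg1, which exports cholesterol from macrophages, was at 54.3 CPM with panobinostat, 101 CPM with givinostat, 89.2 CPM with ruxolitinib and 87.7 CPM with vehicle in macrophage-like cells, and at 74.8, 104, 134 and 115 CPM in monocyte-like cells in the same order. Proximal tubule-like cells had no more than 0.390 CPM of it, and free tubule RNA stood in macrophage-like cells at a median of at most 20.5% of its tubule level. The panobinostat ratio was 0.620 [0.415 to 0.913] in macrophage-like cells, where 8.69% of all genes were past 1.5-fold lower, and 0.652 [0.505 to 0.842] in monocyte-like cells. Slco2b1 was at 61.1, 59.9, 50.5 and 59.8 CPM in macrophage-like cells of the panobinostat, givinostat, ruxolitinib and vehicle libraries, with ratios to vehicle of 1.02 [0.676 to 1.53], 1.00 [0.714 to 1.41] and 0.845 [0.586 to 1.22] for the 3 drugs, whose intervals include 1. T-like and NK-like cells held P-glycoprotein transcripts. In T-like cells Abcb1a was at 29.4, 34.7, 23.8 and 21.3 CPM and Abcb1b at 25.2, 46.3, 33.5 and 30.6 CPM in the same order. Pooled over the libraries, Abcb1a was at 28.3 CPM in T-like and 26.5 CPM in NK-like cells, and Abcb1b at 36.9 and 36.8 CPM. Abcb1b was highest in NK-like cells in the vehicle library (60.8 CPM) and in T-like cells in the others. With givinostat the Abcb1a ratio in T-like cells was 1.63 [1.25 to 2.13], where 2.4% of all genes were past 1.5-fold higher. That of Abcb1b was 1.51 [1.21 to 1.90], which missed the threshold once 5 CPM were added. Abcb1a and Abcb1b, like Slco4a1, Abcc1 and Slco2a1 below, were named after their values were seen.

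In loop of Henle-like cells Slco4a1, a thyroid hormone carrier, was at 46.4, 68.9, 51.0 and 38.2 CPM and Abcc1 (MRP1) at 42.7, 47.8, 45.3 and 38.9 CPM in the panobinostat, givinostat, ruxolitinib and vehicle libraries. The givinostat ratio of Slco4a1 was 1.81 [1.42 to 2.31], where 4.41% of all genes were past 1.5-fold higher. Pooled over the libraries, Abcc1 was highest in intercalated-like cells, at 57.0 CPM, with loop of Henle-like cells next at 43.8 CPM. Slco3a1 was widespread, at 117, 108, 129 and 119.9 CPM in loop of Henle-like and 87.2, 101, 98.9 and 88.7 CPM in T-like cells. Endothelium-like cells numbered 42, 68, 51 and 48 in the panobinostat, givinostat, ruxolitinib and vehicle libraries, so that only givinostat and ruxolitinib had 50 or more. Abcg2 was there at 152, 158, 163 and 251 CPM and the prostaglandin carrier Slco2a1 at 64.0, 38.1, 66.6 and 128.5 CPM in the same order, and no drug was compared with vehicle. Slc22a6 was at 75.6, 32.6, 42.6 and 30.6 CPM in T-like cells of the panobinostat, givinostat, ruxolitinib and vehicle libraries, highest in the library where free tubule RNA was highest, and no drug difference is read from such values.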

How the data were processed

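Whole kidney suspensions were run on a 10x 3′ droplet system. The authors deposited raw UMI counts in a single matrix of genes by cells; Cell Ranger 3.0.1 and mm10 are named in the submitters' processing notes. A barcode suffix gave each cell's library; the suffix that names no drug was taken as vehicle. A cell had to show 200 genes, 500 UMIs and a mitochondrial share below 50%, and 226 cells failed. With the 49 members removed, 2000 variable genes, 30 principal components and 15 neighbours gave 30 Leiden clusters at resolution 1 (scanpy 1.11.5, leidenalg 0.10.2, Python 3.11.15), of which 27 were named from marker lists and 3 stayed unnamed; names are class-like because only RNA was measured. Thresholds for naming were set with the data in view, and clusters were called S3-like or S1-like when the centred S3 minus S1 marker score passed 1. Cluster 1 of the S3-like cells was led by stress genes (Pdk4, Angptl4). Scrublet marked 0.0682%, 2.30%, 0.302% and 0.0254% of cells in the panobinostat, givinostat, ruxolitinib and vehicle libraries, too few in 3 of them to count as a working doublet filter, so no doublet was removed.

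Counts were summed per class and library where both sides had at least 50 cells. Intervals are exact Poisson or conditional binomial intervals at 95% and cover counting error only. Members were named at 50 CPM in proximal tubule-like cells, when past 1.5-fold against vehicle there, or when at 50 CPM and at least 1.5 times their proximal tubule-like level in another class, in every library with 50 cells of it; the other members that appear by name were chosen after their values were seen. Members, lists and tests were chosen with earlier results of these data known. Sequences are from RefSeq on GRCm38.p6 and positions from GENCODE on GRCm38. Alternatives covered scaling (edgeR 4.0.16, DESeq2 1.42.0, for factors only), filters, pseudocounts, clustering, doublets and cell mix. Results for a few genes are not reported here.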

Additional observations from a re-analysis of the deposited data

Results flagged for a closer look

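With ruxolitinib, Slc22a8 lay above vehicle in S3-like cells (1.46 [1.36 to 1.57]) and below it in S1-like cells (0.912 [0.859 to 0.969]), the S3-like ratio being 1.60 times the S1-like one. With givinostat, Abcc5, an exporter of cyclic nucleotides and other anions, lay above vehicle in mixed cells (1.39 [1.05 to 1.84]) and below it in S3-like cells (0.804 [0.655 to 0.984]), a ratio of 1.72 between them. Both were singled out because the counting intervals lie on opposite sides of 1; the differences themselves were not tested.

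An unnamed cluster of 39 cells, led by the urothelial genes Upk3a and Upk1b and used in no comparison, held Abcc3 (MRP3), a basolateral exporter of conjugates, at 157 CPM [127 to 192], while the next class, macrophage-like, was at 21.9 CPM. It also held Slc22a17, a receptor for lipocalin 2, at 57.8 CPM [40.2 to 80.3], beside 28.3 CPM in distal nephron-like cells.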

How the results depend on the processing

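No called result reversed under the alternatives run. No paired analysis was possible because each group has 1 library and all replicate numbers are 1. Counts of members past 1.5-fold against vehicle that left 1.5 times their reported value were, with ruxolitinib, 1 with a 50 CPM minimum, 1 with a pseudocount of 20 CPM and 1 with the vehicle mix of clusters (2 reported); with panobinostat, 1 with a pseudocount of 1 CPM (0 reported); and with givinostat, 2 with the stricter cell filter (1 reported). The ruxolitinib median log2 ratio was -0.11 with TMM factors and -0.10 with DESeq2 size factors, against -0.00 as reported. Between S3-like and S1-like cells, a 50 CPM minimum left 8 members in both the givinostat and the ruxolitinib library (16 reported), and 19 were counted in the vehicle library (12 reported) with members among the variable genes and with resolution 0.5; the cause was not tested. With Malat1-rich cells alone, an alternative added after the data were seen, the drug counts were 0, 1 and 3 and the segment counts 11, 15, 15 and 12.

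Of 540 alternative values of 54 named ratios, 513 stayed on the same side of 1 and 415 within the reported interval. Slc22a28 with givinostat ran from 1.61 to 1.72, Slco1a1 with ruxolitinib from 0.569 to 0.747 and Slc22a7 with ruxolitinib from 0.474 to 0.579. The ratio of Slc22a28 with ruxolitinib, which was not called, ran from 1.38 with TMM factors to 1.63 in Malat1-rich cells alone. With 1 library per group, depth is not what limits the abundant members: the spread between animals is unknown.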

Other observations

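Some members had their highest level in classes with few cells, pooled over the 4 libraries. Abcb10, a mitochondrial protein of haem-forming cells, was at 44.9 CPM [36.9 to 54.0] in 332 erythroid-like cells, against 21.2 CPM in proximal tubule-like cells, the next class. The libraries disagreed: it was at 43.1, 95.4 and 16.5 CPM in 103, 76 and 146 erythroid-like cells with panobinostat, givinostat and ruxolitinib, and in the ruxolitinib library intercalated-like cells were higher, at 26.5 CPM. The vehicle library had 7 such cells. Slc22a15 was at 57.5 CPM [43.0 to 75.4] in 96 neutrophil-like cells, with monocyte-like cells next at 30.5 CPM and proximal tubule-like cells at 0.699 CPM. Abcc5 was at 56.3 CPM [41.8 to 74.2] in 73 mesenchyme-like cells, with monocyte-like cells next at 46.6 CPM and proximal tubule-like cells at 23.9 CPM. The intervals cover counting error only, these genes were named after their values were seen, and no drug was compared for them in these classes.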
